A study of Mus musculus with 14 samples.

Results

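T cell costimulatory receptors are described here as 8 genes, Icos, Cd28, Ctla4, Cd40lg, Tnfrsf4, Tnfrsf9, Tnfrsf18 and Cd27, taken by gene symbol from a table of 26683 symbols. All 8 were present and all 8 were among the 13427 genes with enough counts to test, and the lowest count of any of them in any library was 155. RNA was sequenced from CD4 T cells sorted from the spleens of 7 female mice aged 8 months. TC mice (B6.NZM-Sle1NZM2410/AegSle2NZM2410/AegSle3NZM2410/Aeg/LmoJ) carry 3 lupus susceptibility intervals of the NZM2410 strain on a C57BL/6J (B6) background, and the controls were B6. The groups were 3 TC Tfh, 4 B6 Tfh, 3 TC Tn and 4 B6 Tn libraries, where Tfh, follicular helper T cells, were sorted as CD44+, CD162 low or negative and PD-1+, and Tn, naive T cells, as CD44-. Each mouse gave 1 Tfh and 1 Tn library, and TC mice are numbered 1, 2 and 4. The gates hold no marker that removes regulatory T cells, which share several of these receptors. The table's source label names Tfh for the Tn libraries also, and the titles and cell type labels were followed.

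A T cell that meets antigen needs a second signal, costimulation, before it divides and helps other cells. CD28 gives that signal when it binds CD80 or CD86 on the antigen-presenting cell, and CTLA-4 binds the same ligands with higher affinity and restrains the response. ICOS, a relative of CD28, is needed for follicular helper cells to form and persist, and CD40 ligand on helper cells drives germinal centre B cells through CD40. OX40 (Tnfrsf4), 4-1BB (Tnfrsf9), GITR (Tnfrsf18) and CD27 belong to the TNF receptor superfamily and signal through TRAF adaptors to NF-kappaB.

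Gene positions are on mouse build GRCm38 (GENCODE M21), the build of mm10. Cd28 (chr1:60716800-60773359, + strand), Ctla4 (chr1:60887000-60915832, + strand) and Icos (chr1:60977927-61000320, + strand) lie next to each other, with 113640 bases between Cd28 and Ctla4, 62094 between Ctla4 and Icos, and 0 other coding genes in either gap. Tnfrsf4 (chr4:156013843-156016612, + strand) and Tnfrsf18 (chr4:156026164-156028895, + strand) are 9551 bases apart with 0 coding genes between, and Tnfrsf9 (chr4:150914562-150946102, + strand) is on the same chromosome. Cd27 (chr6:125232622-125237010, - strand) and Cd40lg (chrX:57212143-57224042, + strand) stand alone. The sources used here give no chromosomal borders for the Sle intervals, and whether any of the 8 genes lies inside one was not tested.

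Promoter sequences are shown for the 4 genes whose level differed most between the strains in Tfh, each as 300 bases, 250 before to 50 after the transcription start, 5′ to 3′ on the gene's strand (RefSeq, GRCm38.p6). A promoter was found in RefSeq for 5 of the 8 genes, and Cd27 is the fifth. Capitals mark a match on either strand to AP-1 (TGANTCA), NF-kappaB (GGGNNTTCC) or NFAT (GGAAAA), transcription factor families that act below the T cell receptor and CD28, and no match overlapped another. The Tnfrsf9 promoter shown is the second of a pair of annotated starts.
Ctla4, chr1:60908775-60909074, + strand: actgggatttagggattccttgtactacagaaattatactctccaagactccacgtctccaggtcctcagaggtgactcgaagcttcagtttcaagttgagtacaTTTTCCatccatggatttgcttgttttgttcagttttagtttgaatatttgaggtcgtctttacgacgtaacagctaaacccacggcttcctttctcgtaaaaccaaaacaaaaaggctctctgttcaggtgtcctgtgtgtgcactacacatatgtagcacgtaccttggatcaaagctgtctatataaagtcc
Tnfrsf4, chr4:156013445-156013744, + strand: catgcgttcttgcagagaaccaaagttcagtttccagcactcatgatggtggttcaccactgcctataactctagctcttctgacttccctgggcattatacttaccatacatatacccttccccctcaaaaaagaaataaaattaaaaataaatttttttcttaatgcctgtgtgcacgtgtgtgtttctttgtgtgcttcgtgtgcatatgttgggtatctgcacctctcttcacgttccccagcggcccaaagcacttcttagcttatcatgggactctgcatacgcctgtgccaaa
Tnfrsf9, chr4:150927749-150928048, + strand: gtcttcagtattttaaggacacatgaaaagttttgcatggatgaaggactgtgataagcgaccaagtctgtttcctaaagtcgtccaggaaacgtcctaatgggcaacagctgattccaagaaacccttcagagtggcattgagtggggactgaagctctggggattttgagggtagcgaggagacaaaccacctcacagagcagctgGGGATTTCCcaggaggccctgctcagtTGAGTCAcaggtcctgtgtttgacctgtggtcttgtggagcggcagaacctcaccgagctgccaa
Tnfrsf18, chr4:156026072-156026371, + strand: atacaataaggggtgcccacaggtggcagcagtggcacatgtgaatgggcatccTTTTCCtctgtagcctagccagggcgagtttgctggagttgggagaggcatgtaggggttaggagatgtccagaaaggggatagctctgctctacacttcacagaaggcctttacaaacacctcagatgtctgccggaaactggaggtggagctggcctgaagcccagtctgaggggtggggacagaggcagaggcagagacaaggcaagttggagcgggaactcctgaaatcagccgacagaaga
The Tnfrsf9 window held an NF-kappaB match beginning 42 bases before the start and an AP-1 match beginning 15 before it. The window of the other Tnfrsf9 start (chr4:150919905-150920204, + strand) held 0 matches to either motif and 1 to NFAT, at 138 bases before the start. Ctla4 and Tnfrsf18 each held 1 NFAT match, at 145 and 196 bases before the start, and Tnfrsf4 held none of the 3 motifs. Of 32851 promoters of the same length, 7.81% held the AP-1 motif, 5.82% the NF-kappaB motif and 23.4% the NFAT motif. A match is a run of letters and not a site shown to be bound.

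Library totals ran from 15162309 to 20191558 counts. Levels are in CPM, the reads of a gene out of every 1000000 counted, given as mean ± SD over the libraries of a group, or in CPM per kilobase of exon where genes are set against each other. In each strain all 6 Tfh markers (Cxcr5, Bcl6, Pdcd1, Il21, Tox2, Sh2d1a) were higher in Tfh than in Tn and the 4 naive markers Ccr7, Lef1, Il7r and Tcf7 were lower, in the direction the labels give. Pdcd1 encodes PD-1, on which Tfh were sorted, so its rise is no independent check. The 8 regulatory T cell markers (Foxp3, Il2ra, Ikzf2, Ikzf4, Lrrc32, Nrp1, Gpr83, Itgae), with none at 0 in any group, summed to 2243 to 2474 CPM in TC Tfh, 1786 to 2298 CPM in B6 Tfh, 97.9 to 114 CPM in TC Tn and 134 to 176 CPM in B6 Tn, and 8 of 8 were higher in Tfh in each strain. B cell markers summed to 75.5 to 104 CPM in TC Tfh, 109 to 120 CPM in B6 Tfh and at most 2.43 CPM in any Tn library, and the Ctla4, Icos and TNF receptor rises below move with both lists. The part of regulatory T cells and B cells in these results was not tested, and in sorted bulk RNA a change in the share of cells that carry a transcript and a change in its amount per cell cannot be told apart.

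In Tfh compared with Tn, 7 of the 8 genes rose in TC and all 8 rose in B6. Of all genes tested, 66.2% changed in TC (33.8% rose and 32.4% fell) and 70.5% in B6 (37.1% rose and 33.4% fell). The Tfh and Tn libraries did not overlap in CPM for 7 of the 8 genes in TC and all 8 in B6, against 70.7% of all genes tested in TC and 63.6% in B6. The median log2 fold change of the 8 was 2.20 in TC and 2.24 in B6, against -0.01 and 0.02 over all genes tested. Fold changes and adjusted p-values below are from edgeR's quasi-likelihood test with Benjamini-Hochberg adjustment over all 13427 genes, with TMM scaling, so they differ slightly from ratios of CPM.

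**Figure D1:**
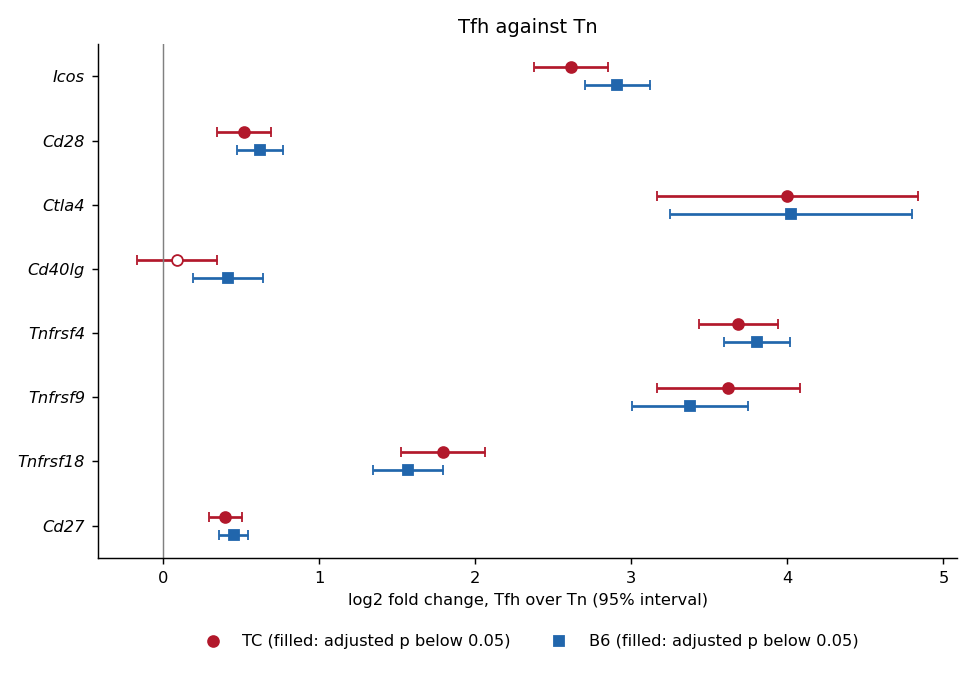
Log2 fold change of Tfh over Tn for the 8 genes in TC (circles) and B6 (squares), with 95% intervals from the edgeR fit. Filled symbols have an adjusted p below 0.05. Ctla4, Tnfrsf4 and Tnfrsf9 lie furthest right, and Cd28, Cd27 and Cd40lg closest to 0.

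Ctla4, the inhibitory receptor, had the largest fold of the 8 in both strains. It stood at 758, 755 and 460.1 CPM in TC Tfh mice 1, 2 and 4, against 47.2, 49.3 and 18.1 CPM in TC Tn. In B6 it stood at 233, 232, 261 and 231 CPM in Tfh of mice 1 to 4, against 7.68, 18.5, 15.04 and 12.7 CPM in Tn. No Tfh library overlapped a Tn library, and the rise was 16.0-fold in TC (log2 4.00, SE 0.38, adjusted p = 2.8e-06) and 16.3-fold in B6 (log2 4.02, SE 0.35, adjusted p = 1.07e-06). Within a mouse the Tfh to Tn ratio ran from 15.3 to 25.4 in TC and from 12.6 to 30.4 in B6.

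Tnfrsf4, which encodes OX40, and Tnfrsf9, which encodes 4-1BB, were close to Ctla4 in the size of their rise. Tnfrsf4 stood at 204, 189 and 185 CPM in TC Tfh, against 14.7, 12.8 and 14.1 CPM in TC Tn, and at 327, 306, 313 and 246 CPM in B6 Tfh, against 23.6, 18.3, 18.6 and 17.2 CPM in B6 Tn. The rise was 12.9-fold in TC (log2 3.68, SE 0.12, adjusted p = 2.45e-13) and 13.95-fold in B6 (log2 3.80, SE 0.10, adjusted p = 1.18e-14). Tnfrsf9 stood at 144, 149 and 141 CPM in TC Tfh, against 8.75, 10.6 and 13.4 CPM in TC Tn, and at 248, 214, 221 and 168 CPM in B6 Tfh, against 23.0, 22.5, 15.4 and 13.6 CPM in B6 Tn. Every Tfh library of either gene was above every Tn library, and Tnfrsf9 rose 12.3-fold in TC (log2 3.62, SE 0.21, adjusted p = 8.46e-09) and 10.4-fold in B6 (log2 3.38, SE 0.17, adjusted p = 1.44e-09).

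Icos, the receptor on which germinal centre helper cells depend, rose 6.12-fold in TC (log2 2.61, SE 0.11, adjusted p = 8.26e-12) and 7.51-fold in B6 (log2 2.91, SE 0.10, adjusted p = 2.74e-13). It stood at 456, 409 and 443 CPM in TC Tfh, against 71.7, 63.3 and 63.0 CPM in TC Tn. In B6 it stood at 393, 438, 509 and 505 CPM in Tfh, against 48.7, 55.9, 59.2 and 60.3 CPM in Tn. The groups did not overlap in either strain. Within a mouse the ratio ran from 6.36 to 7.02 in TC and from 7.84 to 8.61 in B6, so every B6 mouse had a higher Icos ratio than every TC mouse. The test of that difference between the strains gave a log2 interaction of -0.30 (adjusted p = 0.368). With mouse added as a fixed block it was -0.29 (adjusted p = 0.0197), and with mouse as a random effect in limma voom also -0.29 (adjusted p = 0.172).

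Tnfrsf18, which encodes GITR, rose less than the other 2 TNF receptors on chromosome 4 and was already present in naive cells. It stood at 146, 139 and 124 CPM in TC Tfh, against 37.5, 36.5 and 35.4 CPM in TC Tn, and at 235, 244, 227 and 187 CPM in B6 Tfh, against 67.6, 72.6, 78.6 and 55.0 CPM in B6 Tn. The rise was 3.47-fold in TC (log2 1.80, SE 0.13, adjusted p = 8.48e-09) and 2.97-fold in B6 (log2 1.57, SE 0.10, adjusted p = 3.03e-09), with no overlap between Tfh and Tn.

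Cd28 and Cd27, receptors present on resting T cells, rose by less than 2-fold. Cd28 averaged 680.1 ± 7.32 CPM in TC Tfh and 440.1 ± 14.9 CPM in TC Tn, and 706 ± 55.3 CPM in B6 Tfh and 419 ± 36.7 CPM in B6 Tn. It rose 1.43-fold in TC (log2 0.52, SE 0.08, adjusted p = 2.25e-05) and 1.54-fold in B6 (log2 0.62, SE 0.07, adjusted p = 3.98e-07). Cd27, the receptor for CD70, averaged 485 ± 16.9 CPM in TC Tfh and 341 ± 12.9 CPM in TC Tn, and 445 ± 16.1 CPM in B6 Tfh and 296 ± 4.64 CPM in B6 Tn. It rose 1.32-fold in TC (log2 0.40, SE 0.05, adjusted p = 1.94e-06) and 1.37-fold in B6 (log2 0.45, SE 0.04, adjusted p = 4.97e-08). For both genes the Tfh libraries lay above the Tn libraries of their strain without overlap.

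Cd40lg, the ligand by which helper cells act on B cells, was the gene that changed least. In TC it stood at 145, 149 and 129 CPM in Tfh, against 133, 137 and 97.7 CPM in Tn, and these ranges overlapped. In B6 it stood at 104, 119, 125 and 126 CPM in Tfh, against 85.5, 73.8, 78.8 and 86.9 CPM in Tn, with no overlap. It rose 1.33-fold in B6 (log2 0.42, SE 0.11, adjusted p = 0.00267), and the log2 fold change in TC was 0.09 with a 95% interval from -0.17 to 0.35 (adjusted p = 0.533). The interaction of strain and cell type was -0.33 on the log2 scale (adjusted p = 0.38), so the difference between the strains did not pass the test.

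**Figure D2:**
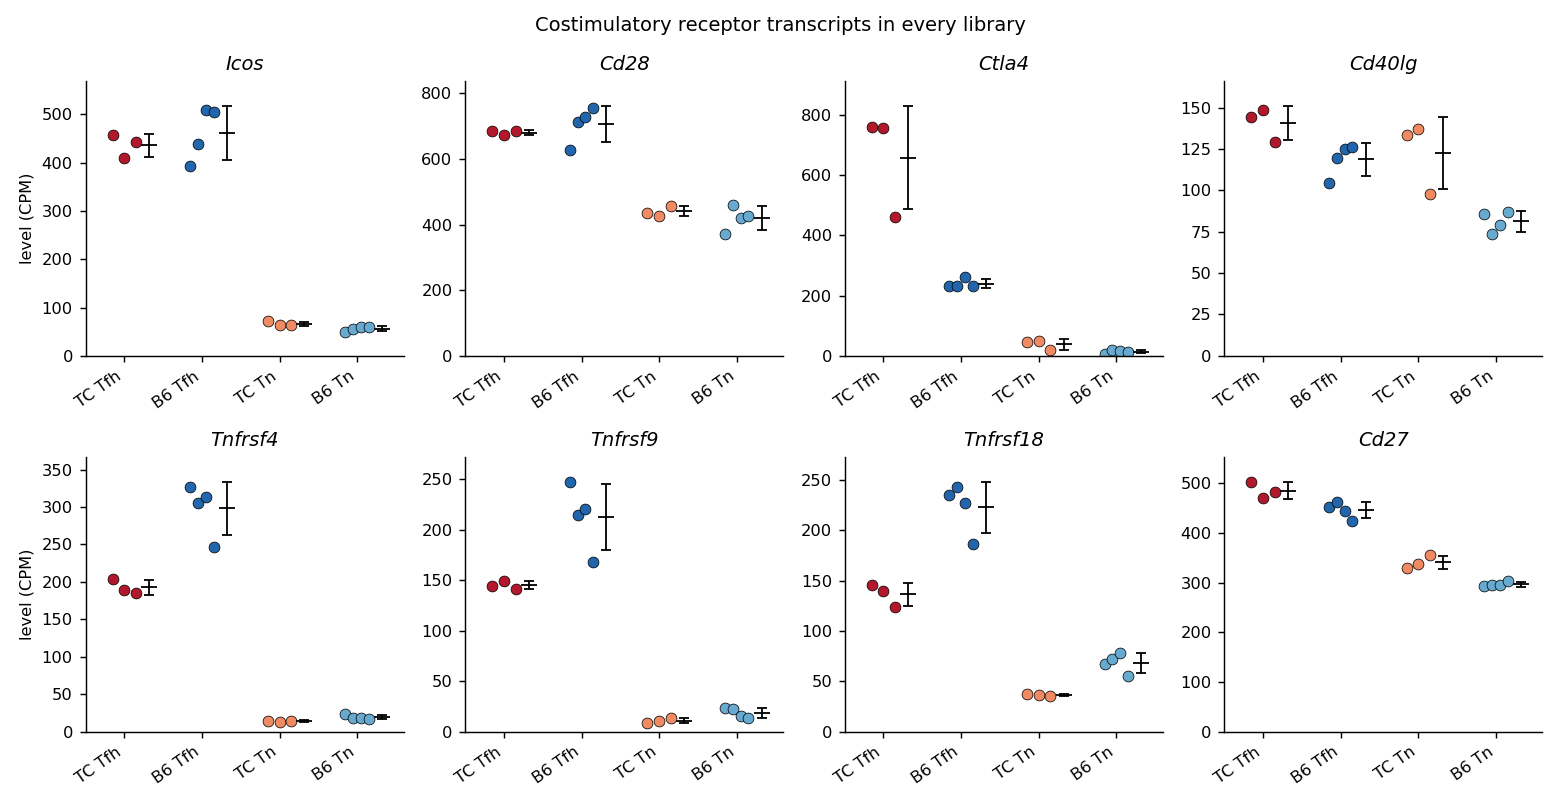
CPM of each of the 8 genes in every library, with each point 1 library and the bar beside each group its mean and SD (n = 3 for TC groups and 4 for B6 groups). Ctla4 in TC Tfh lies between 460.1 and 758 CPM, above all 4 B6 Tfh libraries, while Tnfrsf4, Tnfrsf9 and Tnfrsf18 in TC Tfh lie below all 4.

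Between the strains the 8 genes went in both directions, as did all genes tested, with Ctla4 higher in TC and 3 TNF receptors lower. In Tfh, 2 of the 8 genes were higher in TC (Ctla4 and Cd27), 3 were lower (Tnfrsf4, Tnfrsf9 and Tnfrsf18) and 3 did not pass the test. Of all genes tested 50.7% were called in Tfh (24.7% higher and 25.9% lower in TC), and 5 of 8 is near this background. In Tn, 3 of the 8 were higher (Ctla4, Cd40lg and Cd27) and 3 lower (Tnfrsf4, Tnfrsf9 and Tnfrsf18), where 51.9% of all genes were called (25.8% higher and 26.1% lower). The medians were -0.08 in Tfh and 0.10 in Tn on the log2 scale, against -0.02 and -0.01 over all genes.

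**Figure D3:**
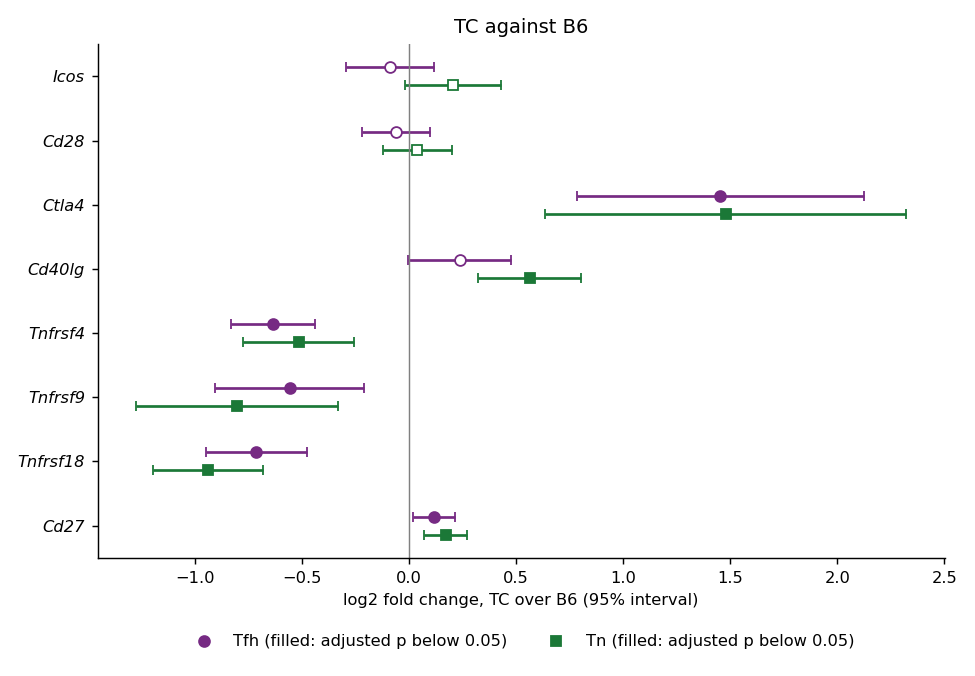
Log2 fold change of TC over B6 for the 8 genes in Tfh (circles) and Tn (squares), with 95% intervals from the edgeR fit. Filled symbols have an adjusted p below 0.05. Ctla4 lies to the right in both cell types, at 1.45 in Tfh and 1.48 in Tn, and Tnfrsf4, Tnfrsf9 and Tnfrsf18 lie to the left.

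Ctla4 was higher in TC in both populations, with the largest strain difference of the 8. It averaged 658 ± 171 CPM in TC Tfh and 239 ± 14.6 CPM in B6 Tfh, 2.74-fold higher in TC (log2 1.45, SE 0.30, adjusted p = 0.00234). In naive cells it averaged 38.2 ± 17.4 CPM in TC Tn and 13.5 ± 4.53 CPM in B6 Tn, 2.79-fold higher in TC (log2 1.48, SE 0.38, adjusted p = 0.00733). The TC and B6 Tfh libraries did not overlap, whereas the lowest TC Tn library, at 18.1 CPM, lay below the highest B6 Tn library, at 18.5 CPM. TC mouse 4 had the lowest Ctla4 of the TC mice in both populations. In Tfh its sum of the 8 regulatory markers was the lowest as well, at 2243 CPM against 2284 and 2474 CPM in TC mice 1 and 2, and so was its Foxp3, at 274 CPM against 331 and 410 CPM, while its Ikzf2 was not. In Tn its marker sum, at 109 CPM, lay between those of mice 1 (114 CPM) and 2 (97.9 CPM). Foxp3 stood at 366, 356, 287 and 289 CPM in B6 Tfh, overlapping TC Tfh, and 2 of 8 regulatory markers were higher in TC Tfh and 0 lower. In Tn 0 of 8 were higher in TC and 4 were lower, while Ctla4 was higher there. The part of regulatory T cells in the Ctla4 difference was not tested.

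Tnfrsf4, Tnfrsf9 and Tnfrsf18 were lower in TC in both populations, and the per-library values given above did not overlap between the strains for any of the 3 in either population. In Tfh, Tnfrsf18 averaged 137 ± 11.3 CPM in TC and 223 ± 25.3 CPM in B6 (log2 -0.71, SE 0.11, adjusted p = 0.000109), and Tnfrsf4 averaged 193 ± 10.3 CPM in TC and 298 ± 35.7 CPM in B6 (log2 -0.63, SE 0.09, adjusted p = 4.93e-05). Tnfrsf9 averaged 145 ± 3.90 CPM in TC Tfh and 213 ± 33.1 CPM in B6 Tfh (log2 -0.56, SE 0.16, adjusted p = 0.0113). In Tn the log2 differences were -0.94 for Tnfrsf18 (SE 0.12, adjusted p = 1.64e-05), -0.52 for Tnfrsf4 (SE 0.12, adjusted p = 0.00208) and -0.80 for Tnfrsf9 (SE 0.22, adjusted p = 0.00771). Non-overlap of this kind was seen for 49.6% of all genes in Tfh and 55.0% in Tn. B6 mouse 4 had the lowest Tfh value of the 3 genes and lay nearest to the TC mice, and B6 mouse 1 had the highest value of Tnfrsf4 and Tnfrsf9. Il2ra, a regulatory T cell marker, was likewise highest in mouse 1 and lowest in mouse 4 of B6 Tfh, at 107, 86.1, 79.0 and 74.3 CPM in mice 1 to 4. Other regulatory markers shared this order in part. The sum over all 8 was 2298, 1786, 2067 and 1854 CPM in B6 Tfh mice 1 to 4, highest in mouse 1 and lowest in mouse 2. Foxp3 was highest in mouse 1 (366 CPM) and lowest in mice 3 and 4, which lay close together (287 and 289 CPM). Ikzf2 was highest in mouse 1 (970 CPM) and lowest in mouse 2 (650 CPM). Itgae was highest in mouse 3 (48.2 CPM) and lowest in mouse 4 (34.1 CPM). In Tn the sum of the 8 regulatory markers was lower in TC, as given above, with 4 of 8 lower and 0 higher, and Foxp3 averaged 25.2 ± 2.85 CPM in TC Tn and 35.8 ± 4.85 CPM in B6 Tn. In Tfh 2 of the 8 were higher in TC and 0 lower. The part of regulatory T cells in these differences was not tested.

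The strain differences of Cd40lg and Cd27 were smaller. Cd40lg averaged 123 ± 21.7 CPM in TC Tn and 81.2 ± 6.12 CPM in B6 Tn, 1.48-fold higher in TC (log2 0.56, SE 0.11, adjusted p = 0.00076). In Tfh it averaged 141 ± 10.3 CPM in TC and 119 ± 10.1 CPM in B6 (log2 0.24, adjusted p = 0.0927). As with Ctla4, TC mouse 4 had the lowest Cd40lg of the TC mice in both populations. The Tfh difference of Cd40lg passed in 4 of the 29 alternative settings, at adjusted p from 0.00554 to 0.0488. The lowest of these was without both libraries of TC mouse 4. In the settings where it did not pass, the adjusted p reached 0.265. Cd27 was 1.13-fold higher in TC Tn (log2 0.17, SE 0.05, adjusted p = 0.00606) and 1.08-fold higher in TC Tfh (log2 0.12, SE 0.05, adjusted p = 0.0479). The Cd27 call in Tfh was lost in 15 of the 29 alternative settings, at adjusted p from 0.0513 to 0.237.

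Icos and Cd28 did not pass the test of a strain difference. In Tfh the log2 difference of Icos was -0.09 with a 95% interval from -0.30 to 0.11 (adjusted p = 0.453), and that of Cd28 was -0.06 with an interval from -0.22 to 0.10 (adjusted p = 0.518). In Tn, Icos was at 66.02 ± 4.95 CPM in TC and 56.02 ± 5.198 CPM in B6 (log2 0.21, interval -0.02 to 0.43, adjusted p = 0.115), and Cd28 differed by 0.04 (interval -0.12 to 0.20, adjusted p = 0.708). The TC and B6 libraries overlapped for both genes in Tfh and for Cd28 in Tn, and Icos in Tn did not overlap.

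None of the 8 genes passed the test of the interaction of strain and cell type, for which 2.10% of all genes were called (0.864% upward in TC and 1.24% downward). The strain difference of a gene was therefore not shown to differ between Tfh and Tn. The widest interval was that of Ctla4, from -1.09 to 1.04 on the log2 scale around -0.02.

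CTLA-4 and CD28 compete for CD80 and CD86, and the ratio of their transcripts was computed in each library, with no test. Ctla4 CPM divided by Cd28 CPM was 1.11, 1.13 and 0.673 in TC Tfh mice 1, 2 and 4, against 0.372, 0.326, 0.359 and 0.306 in B6 Tfh mice 1 to 4. In Tn it was 0.108, 0.115 and 0.0397 in TC, against 0.0208, 0.0403, 0.0358 and 0.0296 in B6. The TC and B6 Tfh ratios did not overlap, and the ratio of TC Tn mouse 4 lay inside the B6 Tn range. Per kilobase of exon the mean log2 ratio was 1.31 in TC Tfh, -0.16 in B6 Tfh, -2.27 in TC Tn and -3.63 in B6 Tn, so that Ctla4 exceeded Cd28 per length in TC Tfh only among the 4 group means. The Icos to Cd28 ratio of CPM, by comparison, was 0.609 to 0.666 in TC Tfh and 0.615 to 0.701 in B6 Tfh.

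**Figure D4:**
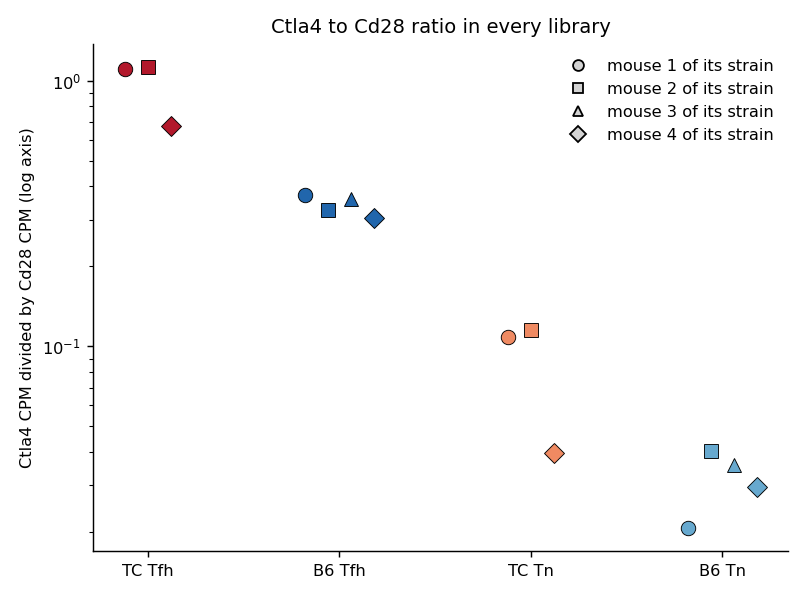
Ctla4 CPM divided by Cd28 CPM in every library, on a log axis, with the symbol marking the mouse within its strain. TC Tfh lie at 0.673 to 1.13 and B6 Tfh at 0.306 to 0.372, and TC mouse 4 (diamond) is the lowest TC mouse in both populations.

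Levels per kilobase of exon put the 8 genes in a different order in each group. In TC Tfh, Ctla4 (282 CPM per kilobase) and Cd27 (208) came first, with overlapping ranges, followed by Tnfrsf4 (141), Icos (127), Cd40lg (113), Cd28 (111), Tnfrsf18 (89.6) and Tnfrsf9 (53.2). Cd40lg and Cd28 overlapped and the other neighbours in that order did not. In B6 Tfh the order was Tnfrsf4 (218), Cd27 (191), Tnfrsf18 (146), Icos (134), Cd28 (115), Ctla4 (103), Cd40lg (94.97) and Tnfrsf9 (78.1 CPM per kilobase), and only Cd27 and Tnfrsf18 were neighbours without overlap. Ctla4 held the first place in TC Tfh and the sixth in B6 Tfh, and kept both places when the longest transcript replaced the exon total as the length. Under that length Cd27 passed Tnfrsf4 in B6 Tfh, Cd28 passed Icos in Tfh of both strains, and Cd40lg fell behind Tnfrsf18 in TC Tfh and behind Tnfrsf9 in B6 Tfh.

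Naive cells of both strains had Cd27 first, at 147 CPM per kilobase in TC Tn and 127 in B6 Tn. In TC Tn, Cd40lg (98.1) and Cd28 (71.9) followed, and in B6 Tn, Cd28 (68.4) and Cd40lg (65.0), which overlapped. Tnfrsf18 stood at 23.9 CPM per kilobase in TC Tn and 44.9 in B6 Tn, and the last 4 places, below 20 CPM per kilobase, were held by Icos, Ctla4, Tnfrsf4 and Tnfrsf9. Ctla4 was the last in B6 Tn, at 5.78 CPM per kilobase. With the longest transcript as the length Cd28 passed Cd40lg in TC Tn and Tnfrsf4 passed Icos in B6 Tn.

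The other genes of the pathways were taken as lists and are described by counts. Of 8 ligands 6 could be tested. Tnfsf18, the ligand of GITR, had 0 counts in every library, which allows up to 0.198 CPM in the smallest library, and Cd70, the ligand of CD27, had 18 counts in TC Tfh, 35 in B6 Tfh and 0 in Tn. Of the 6, 5 rose and 0 fell in Tfh against Tn in TC (median log2 1.94) and 5 rose and 1 fell in B6 (median 2.39). Cd80 averaged 9.69 ± 0.868 CPM in TC Tfh and 0.129 ± 0.0584 CPM in TC Tn (adjusted p = 1.54e-12), and 15.4 ± 1.72 CPM in B6 Tfh and 0.131 ± 0.0634 CPM in B6 Tn (adjusted p = 5.42e-15). Tnfsf4, the ligand of OX40, stood at 1.37 ± 0.480 CPM in TC Tfh and 3.38 ± 0.941 CPM in B6 Tfh, a log2 difference of -1.32 (SE 0.29, adjusted p = 0.00126). Between the strains 2 of the 6 ligands were higher (Cd40 by log2 0.98, adjusted p = 0.00454, and Icosl by 0.57, adjusted p = 0.0132) and 2 lower (Cd80 and Tnfsf4) in TC Tfh, and 0 higher and 1 lower (Cd40) in TC Tn. Tnfsf9, the ligand of 4-1BB, did not pass in Tfh (log2 -0.20, adjusted p = 0.169). Cd40 had 92 counts in TC Tfh and 0 in TC Tn, which is at least 32.9-fold higher against a floor of 3 counts over the group. It had 70 counts in B6 Tfh and 9 in B6 Tn. The B6 Tn libraries ran from 0.0534 to 0.297 CPM, so the strain call of Cd40 in Tn rests on few counts. B cells carry Cd80, Cd86 and Cd40, and the B cell marker sums above move with these ligands between Tfh and Tn, with 3 of 4 tested markers higher in Tfh in each strain and Fcer2a at 0 in both TC groups. The 8 myeloid or dendritic cell markers summed to 0.114 to 0.414 CPM in TC Tfh and 2.04 to 10.2 CPM in B6 Tfh, with Siglech at 0 in both. This sum was lower in TC Tfh, as were Cd80 and Tnfsf4, whereas Cd40 and Icosl were higher. Lyz2 alone, the 1 marker that could be tested, made up most of the B6 sum, at 0.0804 ± 0.0330 CPM in TC Tfh and 5.27 ± 4.26 CPM in B6 Tfh. Within B6 Tfh the sum was 10.1, 10.2, 2.26 and 2.04 CPM in mice 1 to 4, while Cd80 ran from 13.2 to 16.9 CPM. In Tn the sum was 0.123 to 0.382 CPM in TC and 1.175 to 3.219 CPM in B6. There Cd80, near the floor, and Tnfsf4 did not pass between the strains (adjusted p = 0.976 and 0.477). The part of these cells in the ligand levels was not tested.

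Of 9 other T cell costimulatory receptors 8 were tested, and Havcr1 was too low. In Tfh against Tn, 5 of the 8 rose and 0 fell in TC (median log2 0.49) and 6 rose and 0 fell in B6 (0.42). Tnfrsf1b, the TNF receptor of type 2, rose 7.26-fold in TC (log2 2.86, SE 0.09, adjusted p = 1.87e-14) and 6.57-fold in B6 (log2 2.72, SE 0.08, adjusted p = 2.48e-15). Tnfrsf8, which encodes CD30, averaged 36.9 ± 3.51 CPM in TC Tfh and 0.186 ± 0.123 CPM in TC Tn, and 44.4 ± 12.3 CPM in B6 Tfh and 0.109 ± 0.0764 CPM in B6 Tn. Between the strains, 1 of the 8 was higher and 4 were lower in TC Tfh, and 0 were higher and 2 lower in TC Tn. Tnfrsf1b was lower in TC in both, by log2 -0.32 in Tfh (adjusted p = 0.00223) and -0.46 in Tn (adjusted p = 0.000165), as were the 3 TNF receptors above, whereas Tnfrsf14, which encodes HVEM, was higher in TC Tfh (0.35, adjusted p = 0.0192).

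The signalling genes below these receptors moved in both directions. Of 16 genes in the CD28 and ICOS arm, from PI3K to PKC-theta and the genes below it, 3 rose and 9 fell in Tfh against Tn in TC (median log2 -0.25) and 2 rose and 8 fell in B6 (-0.17). Malt1, a paracaspase that acts towards NF-kappaB, rose 3.54-fold in TC (adjusted p = 3.63e-09) and 3.24-fold in B6 (adjusted p = 1.04e-09). Grap2, an adaptor that binds CD28, was 72.2 ± 15.1 CPM in TC Tfh and 464 ± 14.2 CPM in TC Tn, and 75.5 ± 10.1 CPM in B6 Tfh and 414 ± 13.3 CPM in B6 Tn (adjusted p = 3.7e-11 in TC and 9.42e-12 in B6). Pik3cd and Pik3r1, a catalytic and a regulatory PI3K subunit, fell in both strains, by log2 0.98 and 1.06 in TC (adjusted p = 2.48e-10 and 1.96e-09). Between the strains the same 16 genes gave 5 higher and 4 lower in TC Tfh and 3 higher and 2 lower in TC Tn.

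Of 16 genes in the arm of the TNF receptors, the TRAF adaptors, kinases and NF-kappaB subunits, 8 rose and 4 fell in TC Tfh against TC Tn (median log2 0.16) and 9 rose and 4 fell in B6 (0.20). Traf1, an adaptor of 4-1BB and OX40, rose by log2 0.76 in TC (adjusted p = 2.65e-08) and 0.89 in B6 (adjusted p = 3.25e-10). Nfkb2 rose by 0.91 in TC and 0.90 in B6, while Map3k14, a kinase upstream of its processing, fell by 0.96 in TC and by 1.06 in B6 (all with adjusted p at most 2.31e-07). In TC against B6, 6 were higher and 2 lower in Tfh and 5 higher and 4 lower in Tn. Ikbkb, an IkappaB kinase, averaged 464 ± 18.8 CPM in TC Tn and 309 ± 36.1 CPM in B6 Tn (log2 0.56, adjusted p = 1.74e-05).

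Of 12 genes that act on the mRNA or protein of these receptors, 5 rose and 6 fell in Tfh against Tn in TC (median log2 0.01) and 5 rose and 5 fell in B6 (0.07), and 5 were higher and 1 lower in TC in each population, a share called near the 50.7% in Tfh and 51.9% in Tn over all genes. Roquin-1 and roquin-2 (Rc3h1 and Rc3h2) and regnase-1 (Zc3h12a) bind stem loops in mRNAs that include Icos and Tnfrsf4 and lead to their decay. All 3 were higher in TC, where Tnfrsf4 was lower and Icos did not pass the test of a strain difference. The part of Rc3h1, Rc3h2 and Zc3h12a in the receptor levels was not tested. Rc3h2 averaged 150.1 ± 6.50 CPM in TC Tfh and 108 ± 11.8 CPM in B6 Tfh (log2 0.47, adjusted p = 3.64e-05), and 124 ± 6.32 CPM in TC Tn and 86.8 ± 4.58 CPM in B6 Tn (log2 0.49, adjusted p = 1.83e-05). Rc3h1 differed by 0.35 in Tfh (adjusted p = 0.00124) and 0.39 in Tn (adjusted p = 0.000431), and Zc3h12a by 0.40 (adjusted p = 0.000325) and 0.33 (adjusted p = 0.00234). Rnf128, an E3 ligase known as GRAIL that targets CD40 ligand, averaged 31.7 ± 4.05 CPM in TC Tfh and 0.391 ± 0.127 CPM in TC Tn, and 34.2 ± 1.59 CPM in B6 Tfh and 0.506 ± 0.212 CPM in B6 Tn. Lrba, which keeps CTLA-4 from breakdown, rose in Tfh by 0.71 in TC (adjusted p = 5.55e-07) and 0.82 in B6 (adjusted p = 9.38e-09), and Trat1, an adaptor that helps CTLA-4 reach the surface, fell by 2.39 and 2.21. Nedd4 was the one gene of these lists that passed the interaction test (log2 1.84, SE 0.41, adjusted p = 0.0307). It averaged 8.51 ± 0.654 CPM in TC Tfh and 1.88 ± 0.412 CPM in TC Tn, and 5.56 ± 1.37 CPM in B6 Tfh and 4.21 ± 2.01 CPM in B6 Tn.

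**Figure D5:**
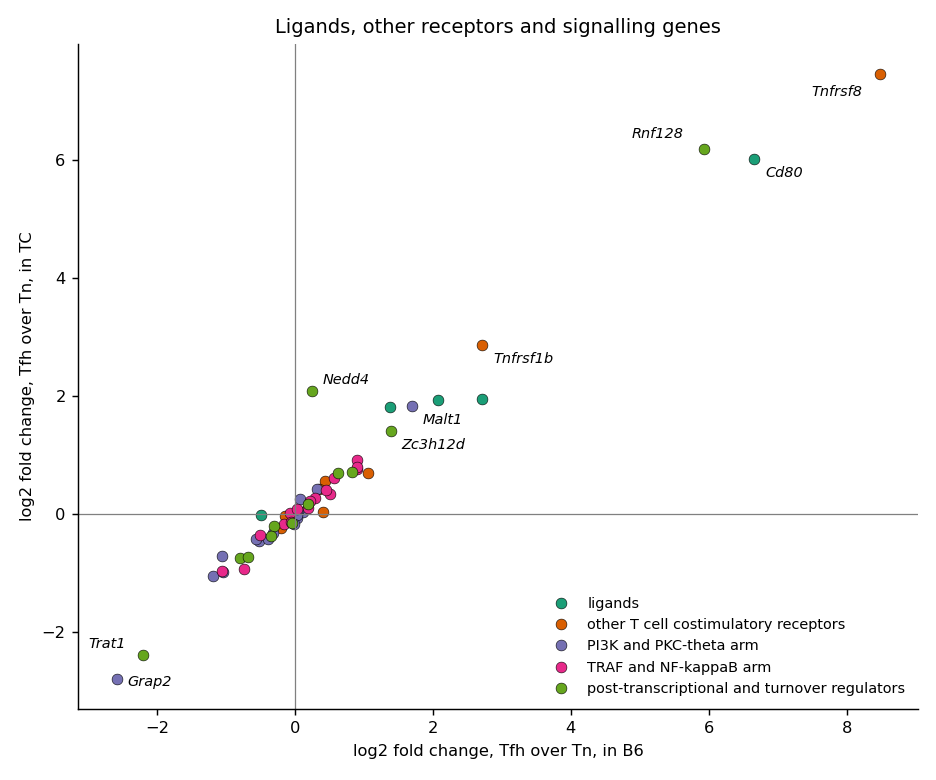
Log2 fold change of Tfh over Tn in TC (vertical) and in B6 (horizontal) for the tested genes of the 5 lists, with Cd40 left out because it had no counts in TC Tn. Tnfrsf8, Cd80 and Rnf128 lie furthest up and right in both strains and Grap2 and Trat1 furthest down and left.

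Some of the 8 genes overlap other annotated genes, and the strand setting of the counting is not given in the sources used here. Tnfrsf9 overlaps Camta1 on the opposite strand, which averaged 11.6 CPM in TC Tfh and 9.21 CPM in B6 Tfh. Cd27 overlaps Vamp1, also on the opposite strand, which was higher in TC Tfh (log2 0.26, adjusted p = 0.00999) and in TC Tn (0.30, adjusted p = 0.00377), in the direction of Cd27. Gm37039, on the strand of Icos and inside its span, averaged 6.69 CPM in TC Tfh and 1.46 CPM in B6 Tfh. Rpl18-ps1, a processed pseudogene inside the span of Ctla4 on the same strand, averaged 12.2 CPM in TC Tn and 18.0 CPM in B6 Tn (log2 -0.59, adjusted p = 0.00601), opposite in direction to Ctla4, and 6.07 CPM in TC Tfh and 7.59 CPM in B6 Tfh. Gm16008, antisense to Tnfrsf18, averaged at most 0.507 CPM in any group. These overlaps are of gene spans, and whether exons overlap was not tested. Any reads that such pairs share would make the levels of these 5 receptors uncertain. For Ctla4 this would bear most on Tn, where the pseudogene is as abundant as Ctla4 in B6.

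Genes within 1 Mb were counted as a description. Around Tnfrsf4 and Tnfrsf18, 12 of 42 tested neighbours were higher and 12 lower in TC Tfh than in B6 Tfh, and 17 higher and 8 lower in Tn. Around Ctla4 and Icos, 5 of 15 were higher and 1 lower in Tfh, and 6 higher and 3 lower in Tn. Around Tnfrsf9, 4 of 12 were higher and 4 lower in Tfh, and 5 higher and 3 lower in Tn. Around Cd27, which was higher in TC, 5 of 41 were higher and 15 lower in Tfh, and 6 higher and 14 lower in Tn. Around Cd28, 5 of 17 were higher and 1 lower in Tfh and 6 higher and 4 lower in Tn, and around Cd40lg 0 of 8 and 1 in Tfh and 1 and 2 in Tn. Over all genes tested 50.7% were called in Tfh and 51.9% in Tn.

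The 3 tested genes whose log2 CPM followed each of the 8 most closely over 14 libraries were found by Pearson's r, given as a description because all 14 share the difference between Tfh and Tn. For Ctla4 they were Plk3, Cul1 and Cited2 (r 0.994, 0.990 and 0.989), for Icos Ptger2, Gas2l1 and Galm (0.997, 0.997 and 0.996), and for Tnfrsf4 Cd82, Cxx1c and Tnfrsf1b (0.999, 0.997 and 0.997). Cd40lg had the weakest best match, Itpk1 at 0.938. Over the 7 Tfh libraries, which share the strain difference, Tnfrsf4 and Tnfrsf18 had r = 0.987, Tnfrsf4 and Tnfrsf9 had r = 0.977 and Icos and Cd28 had r = 0.919, while Ctla4 ran opposite to Tnfrsf4 (r = -0.838). Rhob and Spry1 followed Ctla4 most closely there (r 0.995 and 0.994).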

How the data were processed

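Libraries were made with a stranded kit from RNA of Tfh and Tn of individual mice, per the labels' protocols. The authors deposited read counts, 1 column per library. Alignment was with STAR 2.7 to mm10, per the submitters' processing notes, which also name DESeq2. Neither the counting tool nor its strand setting is given in the sources used here. TC reads were not corrected for alignment to the B6 reference.

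CPM values came from the counts divided by library totals. For tests, genes were filtered with filterByExpr (count minimum 10), scaled by TMM and fitted in edgeR 4.0.16 under R 4.3.3 with robust quasi-likelihood and a mean for each of the 4 groups. The threshold was a Benjamini-Hochberg adjusted p of 0.05 over all genes. P-values measure the spread between the libraries of a group, each from a different mouse. In Tfh against Tn and in the interaction, this fit takes the Tfh and Tn libraries of a mouse as independent. No pair of libraries within a group agreed as closely as duplicates (chi-square per degree of freedom at least 5.31). The floor of 3 counts covers counting error only.

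Replicate numbers mark the mouse. Across genes, the deviations of a mouse's Tfh library from its group mean correlated with those of its Tn library, with r of 0.209, 0.207 and 0.257 in TC and 0.299, 0.114, 0.0395 and 0.203 in B6. Mouse as a block was an alternative.

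The 8 genes, the lists and the alternatives were chosen with earlier results of these data known. Named beside the 8 genes are up to 4 genes per list and comparison with the smallest adjusted p, those with no counts, the markers and the 3 genes most alike each of the 8. Trat1, Cd70 and the overlapping genes were named after their values were seen. Results for a few genes that these rules name are left out here. Exon lengths came from GENCODE M21. Alternatives were DESeq2 1.42.0, limma 3.58.1 voom with mouse as a random effect, other scaling and filters, legacy quasi-likelihood, only the groups compared, and each library or mouse left out.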

Additional observations from a re-analysis of the deposited data

Results flagged for a closer look

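Ctla4 in B6 Tfh had 1 library apart from the others. B6 Tfh mouse 3 stood at 261 CPM, and the other 3 libraries at 233, 232 and 231 CPM, so that its gap to the nearest was 0.926 of the range of the group, above Dixon's critical value. The lowest TC Tfh library, at 460.1 CPM, lay above all 4. Of 16 groups of 4 libraries checked, 1 was marked, and chance marks about 1 group in 20.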

How the results depend on the processing

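Of the 40 log2 fold changes of the 8 genes, none changed direction among those called. Under the first set of alternatives 879 values kept their side of the threshold, 5 passed only there and 12 no longer passed, and under those added after seeing the data 276, 1 and 3. Besides Cd27 and Cd40lg in TC against B6 Tfh, the changes were Icos in Tn with only the groups compared (adjusted p = 0.0309) and the Icos interaction with the replicate block of mouse as a fixed term (not as a random effect, adjusted p = 0.172), which made 1 of the 8 genes called for the interaction. The block changed no other call of the 8. Ctla4 in TC against B6 ran from 1.35 to 1.68 in Tfh and 1.25 to 1.82 in Tn on the log2 scale with 1 library left out.

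The count of genes called for the interaction, 282, was the least stable. It was 533 with DESeq2, 712 with mouse as a fixed block and 580 with mouse as a random effect, and 137 to 299 with 1 library left out, the lowest without TC Tn of mouse 2. The others that moved it by over 1.5 times were TC Tfh 1 (182), TC Tfh 4 (155), TC Tn 1 (178), B6 Tn 2 (186) and B6 Tn 3 (182). Without both libraries of a mouse it was 122, 151 and 125 for TC mice 1, 2 and 4 and 174, 147 and 183 for B6 mice 2, 3 and 4. The cause was not tested. The Ctla4 to Cd28 log2 ratio per kilobase was 1.31, -0.16, -2.27 and -3.63 in TC Tfh, B6 Tfh, TC Tn and B6 Tn, against -0.09, -1.56, -3.66 and -5.03 without the length. Ligands near the floor were imprecise.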
